A study of Mus musculus with 6 samples.

Results

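The miR-10, miR-99 and miR-100 family was followed in C3H/HeJ mouse skin, taken whole from the back, through 5 probes of a microRNA (miRNA) microarray, mmu-miR-10a, mmu-miR-10b, mmu-miR-99a, mmu-miR-99b and mmu-miR-100 (written below without the mouse prefix). They were chosen by probe name, as the main mature strands of these miRNAs, and make up 5 of the 707 mouse miRNA probes on the chip, each printed as 5 spots. The family was taken up after earlier results of these arrays had shown lower means of miR-10b and miR-100 in diseased skin, so its differences between the groups are given below as a description, without tests. AA skin was skin with hair loss from mice with spontaneous alopecia areata (AA), an autoimmune attack on hair follicles that some animals of this inbred strain develop (3 arrays). Unaffected skin was normal haired skin of C3H/HeJ mice labelled as unaffected controls (3 arrays). No treatment, age or sex is given for either group. The design note speaks of several samples per mouse without tying them to arrays, so arrays may share a mouse, and the spread between them may be partly technical.

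The miR-10 genes lie inside Hox gene clusters, which lay out the body axis, and are transcribed from the same regions as the Hox genes around them. miR-99 and miR-100 share most of their sequence with miR-10 but have a different seed, the stretch near the 5′ end that pairs with target mRNAs. They are known as repressors of Mtor and Igf1r, growth signalling genes, and act in epidermal wound healing. miR-10a is known from regulatory T cells and from vascular endothelium, where it restrains inflammatory signalling, and miR-10b represses HOXD10 in human cells.

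The 5 mature sequences are shown because the probes differ by few bases and may share signal. They are the target sequences printed for the probes, each identical to 1 mature miRNA of RefSeq (GRCm38.p6), and the capitals mark the seed (bases 2 to 8).
miR-10a: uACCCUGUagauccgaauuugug
miR-10b: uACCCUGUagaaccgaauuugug
miR-99a: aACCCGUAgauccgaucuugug
miR-99b: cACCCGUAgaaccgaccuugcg
miR-100: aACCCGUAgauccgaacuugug

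The members formed 2 seed groups. miR-10a and miR-10b carried ACCCUGU, and miR-99a, miR-99b and miR-100 carried ACCCGUA. No other probe of the 707 had either seed. Counted from 1 at the 5′ end, miR-10a and miR-10b differed by the single substitution U12A, and miR-99a and miR-100 by the single substitution U16A. miR-99b differed from miR-99a at 4 bases (A1C, U11A, U16C and U21C). Across the seed groups, members were 3 to 6 edits apart. Outside the family the nearest chip sequence was miR-125b-5p, 6 to 9 edits from each member. The GC content was 43.5% in miR-10a and miR-10b, 50% in miR-99a and miR-100, and 63.6% in miR-99b.

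In the RefSeq annotation of GRCm38.p6, with all 5 on the plus strand, mature miR-10a lies at chr11:96317186-96317208, within the span of Hoxb3 and 0.992 kb from Hoxb4 (hairpin to gene). Mature miR-10b lies at chr2:74726074-74726096, within the spans of both Hoxd3 and Hoxd4. miR-99a lies at chr16:77598940-77598961. miR-99b lies at chr17:17830194-17830215, within the span of Spaca6. miR-100 lies at chr9:41531437-41531458, within the long noncoding gene Mir100hg. Each of these last 3 stands in a cluster with a let-7 and a miR-125 gene. The gap from the hairpin to the let-7 gene was 0.656 kb at Mir99a (Mirlet7c-1), 0.094 kb at Mir99b (Mirlet7e) and 5.21 kb at Mir100 (Mirlet7a-2).

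The hairpins of the miR-10 genes are shown because both arms had a probe on the chip. Capitals mark the 2 mature arms, the 5′ arm being the member and the 3′ arm the strand that the chip names with a star.
Mir10a: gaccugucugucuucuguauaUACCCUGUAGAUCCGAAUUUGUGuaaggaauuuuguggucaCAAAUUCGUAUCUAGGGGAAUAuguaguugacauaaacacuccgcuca
Mir10b: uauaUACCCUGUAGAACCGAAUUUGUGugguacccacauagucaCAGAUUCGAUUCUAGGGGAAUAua

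Signal differed between arrays in a way that touches every value of the family. Taking the 88 miRNA probes found on every array, the median of their raw intensities was 1.46 to 3.33 times the median of the empty control spots on the AA arrays, against 4.20 to 16.9 times on the unaffected arrays. A probe counted as detected where the mean raw intensity of its spots lay above a detection line, the 95th percentile of that array's empty spots. The height of this line differed between arrays. The median empty spot stood at 490 against 399 for the median miRNA spot on AA replicate 2. On unaffected replicate 1 it stood at 274 against 168. On the other arrays these medians lay closer together. The line was thus high on AA replicate 2 and unaffected replicate 1, which had the fewest detected probes (115 and 97). Log2 intensity changed with the GC content of the target, with a slope of 0.0068 to 0.17 per 10 percentage points on the AA arrays and -0.36 to -0.077 on the unaffected arrays. The part of signal and GC content in the family's differences was not tested beyond the settings given below. All 7 keratinocyte miRNAs listed as markers of skin were detected often enough to be tested. Unless a unit is named, values below are normalized log2 intensities (background-corrected and quantile-normalized), and differences are AA minus unaffected. A brighter probe does not mean a more abundant miRNA.

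Across the skin samples the 5 probes did not share 1 pattern. miR-10a, miR-10b and miR-100 had lower values on each AA array than on each unaffected array. The measured AA means were 2.29-fold lower for miR-10b and 2.01-fold lower for miR-100, which was above background on 2 of 3 AA arrays. On the log2 scale these differences were -1.19 and -1.01, and they were -0.69 and -0.33 or -2.16 and -1.81 under other scalings of the arrays, described below. miR-10a was above background on 0 of 3 AA arrays, and no fold is given for it. miR-99a overlapped between the groups, and miR-99b had a higher mean in AA skin, also with overlap. The means of 3 of the 4 tested members were lower in AA and 1 was higher, and their median difference was -0.62, against -0.039 over the 157 miRNAs tested (detected on at least 3 of 6 arrays). Of those 157, 53.5% had a lower and 46.5% a higher mean in AA. Without unaffected replicate 3 the members' median was -0.38. In bulk skin, fewer cells of a type and less RNA per cell cannot be told apart.

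**Figure D1:**
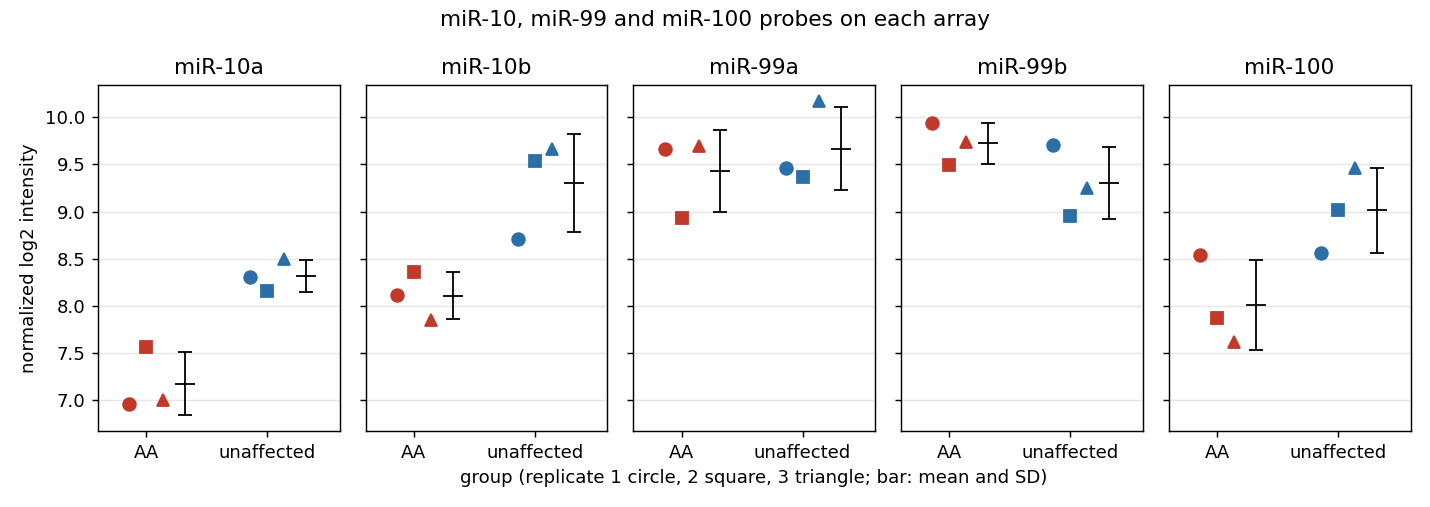
Normalized log2 intensity (y axis) of the 5 probes on each array, by group. Red symbols are AA arrays and blue symbols unaffected arrays, with 1 symbol shape per replicate number, and the black bar gives the mean and SD of the 3 arrays. The groups are apart for miR-10a, miR-10b and miR-100 and overlap for miR-99a and miR-99b.

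No miRNA passed an adjusted p under 0.05 in the limma fit over the 157 tested miRNAs, so 0 of the 4 tested members were called. The background was 0% called higher and 0% called lower, with a smallest adjusted p of 0.402. At an unadjusted p under 0.05, 4 miRNAs were higher and 8 lower in AA, which is 2.55% and 5.1% of those tested. Groups that did not overlap, with AA lower, were found for 11 of the 157 tested miRNAs, a background of 7.01%, and for 7.36% of all 707 probes. Among the members these were miR-10b and miR-100 of the 4 tested, and miR-10a outside the test. AA lay above for 4.46% of the 157, and for 0 of the 5 members. Nothing is read from the members' share, because the contrast was known when they were chosen. The separation of the groups depended on the scaling of the arrays. Scaling to the 75th percentile of the 88 probes left 0 of the 5 members with groups apart. The median difference of all tested miRNAs was then 0.53. Scaling to the 75th percentile of all miRNA probes gave all 5, with a median of -0.95 over all tested miRNAs. The share of all miRNAs with groups apart was not counted under these scalings, so nothing about the family is read from these counts.

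Of the Hox-encoded pair, miR-10b was above the detection line on every array. It measured 8.11, 8.36 and 7.86 in AA replicates 1 to 3, against 8.71, 9.53 and 9.67 in unaffected replicates 1 to 3. The lowest unaffected array was replicate 1, and it still lay above the highest AA array. The group means were 8.11 ± 0.25 over the AA arrays and 9.30 ± 0.52 over the unaffected arrays (SD, n = 3 each), a difference of -1.19 with a limma standard error (SE) of 0.40. It had the fifth lowest difference of the 157 tested miRNAs. The margins of that detection were unequal. Its mean raw intensity was 1.16, 1.12 and 1.03 times the detection line in AA replicates 1 to 3, against 1.15, 10.2 and 7.16 times in unaffected replicates 1 to 3. Unaffected replicate 1 was thus as close to the line as the AA arrays, although its line was high for its miRNA spots. There miR-10b had a raw mean of 396 beside a median miRNA spot of 168. In AA replicates 1 to 3 the raw means were 279, 668 and 592 beside 222, 399 and 557. The signal far above the line came from 2 unaffected arrays.

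miR-10a stayed outside the test, being above the line on none of the 3 AA arrays (0 of 3) and on 2 of 3 unaffected ones. Its probe read 6.96, 7.57 and 6.998 in AA replicates 1 to 3, against 8.30, 8.16 and 8.50 in unaffected replicates 1 to 3. The groups did not overlap, and the 3 unaffected arrays lay close together. The measured means were 7.18 ± 0.34 over the AA arrays and 8.32 ± 0.17 over the unaffected arrays (SD, n = 3 each). Since none of the AA arrays and not all of the unaffected arrays were above background, the size of the difference is not measured. After scaling to the 75th percentile of the 88 probes found on every array, the difference of the measured means was 0.10 in place of -1.14, where the median of all tested miRNAs was 0.53. In the pattern over the 6 arrays miR-10a and miR-10b ran alike (Pearson r = 0.89), a description of probes that differ by 1 base.

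The opposite strands of the miR-10 hairpins, drawn above in capitals on the 3′ arm, gave no signal above the detection line. miR-10a* and miR-10b* were each detected on 0 of 6 arrays, as was miR-99b*. The chip held no probe named miR-99a* or miR-100*. Other Hox-encoded miRNAs were near background as well. Of the 5 such probes on the chip, miR-196a, miR-196a* and miR-196b were detected on 0 of 6 arrays, miR-615-3p on 1 unaffected array and miR-615-5p on 2 unaffected arrays, so 0 of 5 were tested.

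miR-100, a repressor of Mtor whose gene lies apart from the Hox clusters, ran with miR-10b over the 6 arrays (Pearson r = 0.89). It measured 8.54, 7.87 and 7.61 in AA replicates 1 to 3, against 8.56, 9.02 and 9.46 in unaffected replicates 1 to 3. AA replicate 1 and unaffected replicate 1 were nearly equal, and the groups stayed apart by that small gap alone. The means were 8.01 ± 0.48 over the AA arrays and 9.01 ± 0.45 over the unaffected arrays (SD, n = 3 each), with a difference of -1.01 (SE 0.42). Detection held on 2 of 3 arrays in AA and on 3 of 3 in unaffected skin. Its mean raw intensity was 1.32, 0.934 and 1.01 times the detection line in AA replicates 1 to 3 and 1.08, 6.38 and 5.49 times in unaffected replicates 1 to 3.

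miR-99a differs from miR-100 by 1 base and had no such separation. It measured 9.67, 8.93 and 9.70 in AA replicates 1 to 3, against 9.46, 9.36 and 10.18 in unaffected replicates 1 to 3. AA replicate 2 was the lowest array and unaffected replicate 3 the highest, while the other 2 unaffected arrays lay below the other 2 AA arrays, so the groups overlapped. The means of 9.43 ± 0.43 over the AA arrays and 9.67 ± 0.44 over the unaffected arrays (SD, n = 3 each) differed by -0.24 (SE 0.41), less than 1 SD of either group. The sign turned without AA replicate 2 (0.013) and without unaffected replicate 3 (0.017). Spots of miR-99a disagreed on 2 unaffected arrays. Its 5 spots ran from 342 to 1104 in raw intensity on unaffected replicate 1 (coefficient of variation 35.5%) and from 899 to 2168 on unaffected replicate 2 (28.3%). The median coefficient of variation of the members over all arrays was 7.97%, beside 7.16% for the tested miRNAs. With the median of the 5 spots in place of their mean, the difference of miR-99a was -0.38.

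miR-99b, which carries the same seed as miR-99a and miR-100, was the 1 member with a higher mean in AA. It measured 9.94, 9.49 and 9.74 in AA replicates 1 to 3, against 9.71, 8.95 and 9.25 in unaffected replicates 1 to 3. Unaffected replicate 1 lay among the AA arrays, and unaffected replicates 2 and 3 lay below all of them. The means were 9.72 ± 0.22 over the AA arrays and 9.30 ± 0.38 over the unaffected arrays (SD, n = 3 each), with a difference of 0.42 (SE 0.38). It was 0.24 without unaffected replicate 2. miR-99b was detected on all 6 arrays, at 1.26 to 2.34 times the detection line in AA and 2.41 to 6.11 times in unaffected skin. It has the highest GC content of the members, and once the GC trend of every array was taken out its difference was 0.081. The same correction gave -0.90 for miR-10a, -0.95 for miR-10b, -0.18 for miR-99a and -0.95 for miR-100.

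**Figure D2:**
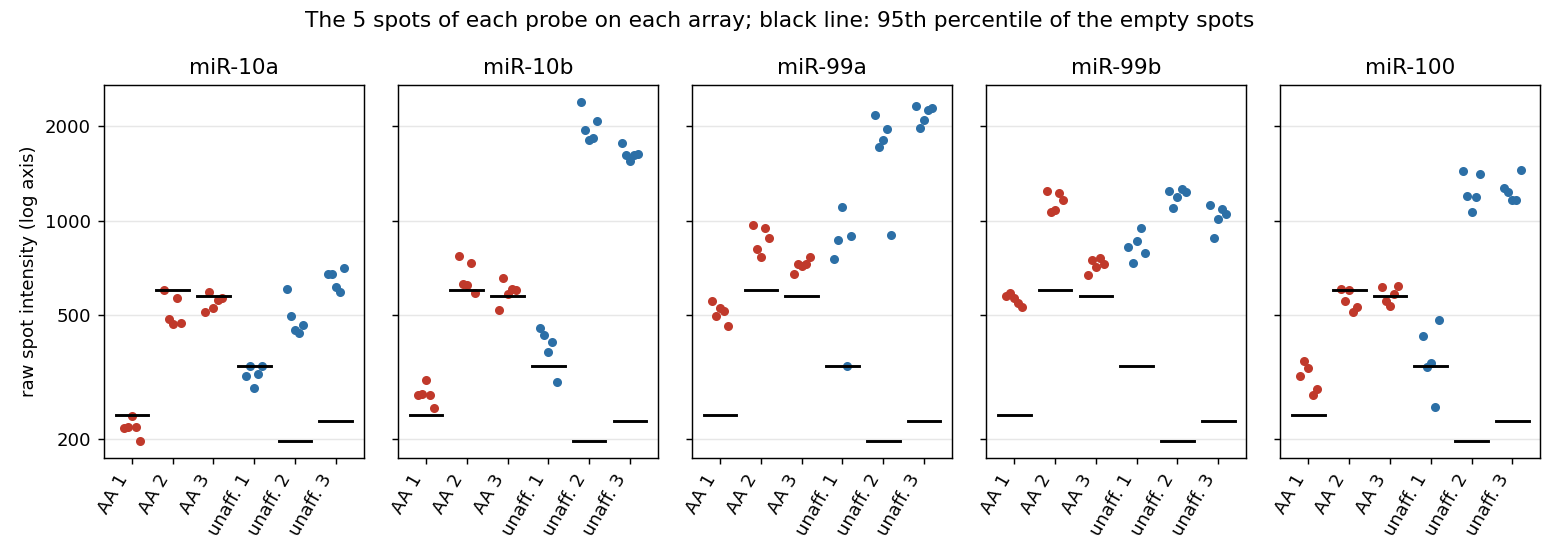
Raw intensity of each of the 5 spots per probe (points, log axis) on every array, with AA arrays in red and unaffected arrays in blue. The black line on each array is the 95th percentile of its empty spots. miR-10b and miR-100 stand far above the line on unaffected replicates 2 and 3 and close to it on the other 4 arrays, while miR-99b has all its spots above the line on every array.

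Differences between members on the same array do not change when an array is scaled as a whole, but quantile normalization changes them. The gaps below are of quantile-normalized values unless another scaling is named. Each such gap includes the brightness of the probes themselves, so only its change between groups is described. miR-10b minus miR-99b was -1.82, -1.14 and -1.88 on AA replicates 1 to 3, against -0.998, 0.58 and 0.42 on unaffected replicates 1 to 3. Of the 10 pairs of members, 4 had gaps that did not overlap between the groups and 6 overlapped. The share over pairs of other tested miRNAs was not counted, so nothing is read from these counts. The pairs given here were chosen with their values known. For miR-10b minus miR-99b every AA gap lay below every unaffected gap, and the change of the mean gap was -1.61, with a range of -2.11 to -1.03 over the alternative settings. That change was -1.18 when arrays were scaled as a whole in place of quantile normalization. Of the pairs that differ by a single base, miR-10a minus miR-10b had overlapping gaps (mean -0.93 on the AA arrays and -0.98 on the unaffected arrays). miR-99a minus miR-100 was 1.13, 1.06 and 2.08 on AA replicates 1 to 3, against 0.90, 0.35 and 0.71 on unaffected replicates 1 to 3. The groups did not overlap and the gap was 0.77 wider in AA. It was 0.44 wider without AA replicate 3, and 0.12 wider when arrays were scaled as a whole in place of quantile normalization. Under that scaling the differences relative to the median of all tested miRNAs were -0.74 for miR-99a and -0.86 for miR-100, so the contrast between these 2 probes depends on the normalization.

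The settings can be compared once the shift of all miRNAs is taken out. The median difference of the tested miRNAs was -0.039 in the reported setting, 0.53 after scaling to the 75th percentile of the 88 probes, -0.95 after scaling to that of all miRNA probes and -0.84 without normalization between arrays. Relative to that median, miR-10b was lower in AA under all 19 alternatives, between -1.59 and -0.87. miR-100 was lower under all 18 that gave it a value (-1.45 to -0.72), and miR-10a, with its measured values, under all 18 (-1.59 to -0.43). miR-99a was lower under 17 of 19 (-0.74 to 0.055). miR-99b ran from -0.042 to 0.59 and was below the median with the 3 other scalings alone. These alternatives are not separate checks, as all reuse the same arrays. The 3 other scalings gave the same relative value (-1.22 for miR-10b), because a shift of a whole array cancels. The changes of filter, variance model and replicate block left a member's difference as it was, by construction.

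**Figure D3:**
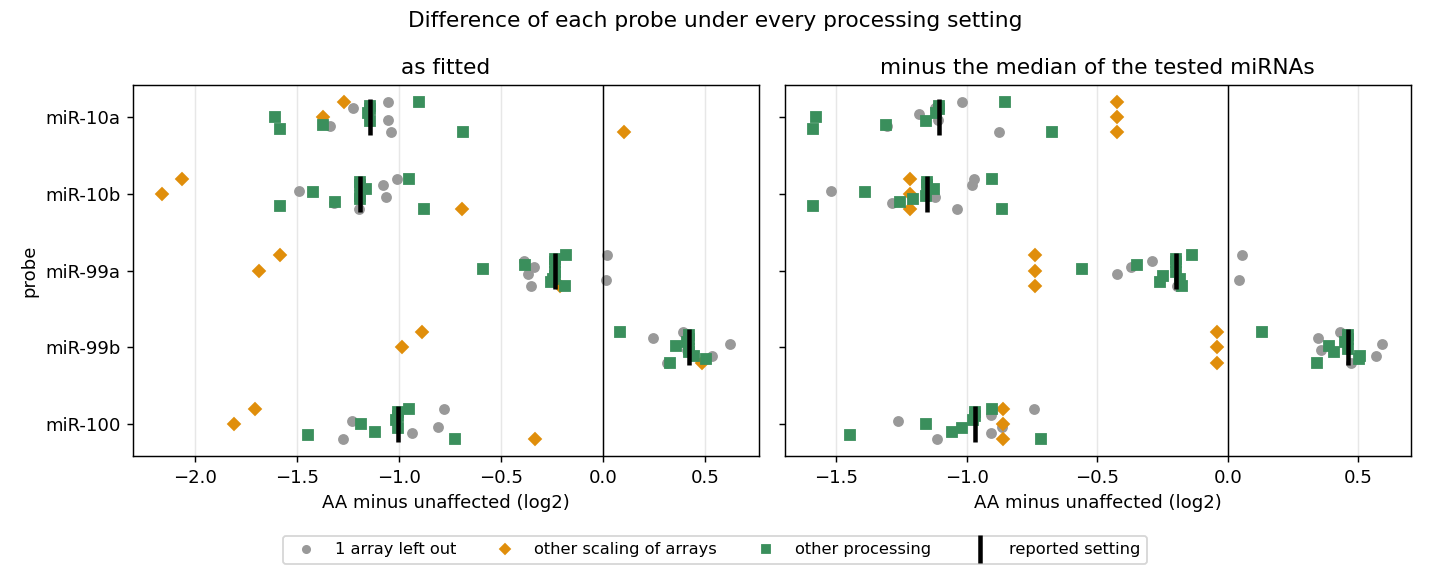
AA minus unaffected difference (x axis, log2) of each probe under the reported setting (black bar) and every alternative (symbols), as fitted on the left and with the median of the tested miRNAs subtracted on the right. On the right, miR-10a, miR-10b and miR-100 stay below 0 under every alternative that gave them a value, and miR-99b is at -0.042 or above.

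The authors' deposited table of processed intensities was read for the same 5 probes. miR-10a stood at 54.8, 138 and 84.9 in AA replicates 1 to 3, against 239, 234 and 333 in unaffected replicates 1 to 3 in that table. miR-10b averaged 225 ± 33.8 over the AA arrays and 654 ± 293 over the unaffected arrays in the authors' deposited table (SD, n = 3 each). For miR-100 the authors' deposited table averaged 207 ± 48.1 over the AA arrays and 490 ± 181 over the unaffected arrays (SD, n = 3 each). miR-99a averaged 585 ± 146 over the AA arrays and 868 ± 157 over the unaffected arrays there (SD, n = 3 each), and its groups did not overlap in the authors' deposited table, unlike in the quantile-normalized values. miR-99b averaged 684 ± 62.6 over the AA arrays and 546 ± 157 over the unaffected arrays in the authors' deposited table (SD, n = 3 each), with overlap. The table rests on the same arrays and is another processing of them, not a further measurement.

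miR-99 and miR-100 were set beside the miRNAs of their genomic clusters, from a list of 5 let-7 and miR-125 partners. All 5 were tested, 4 had lower and 1 a higher mean in AA, 0 passed, and the median difference was -0.066 against -0.039 over all tested miRNAs. At the miR-100 locus, let-7a, a repressor of proliferation genes, differed by -0.066 (SE 0.44) and miR-125b-5p, a regulator of skin stem cells, by -0.079 (SE 0.46), beside -1.01 for miR-100. let-7a measured 13.18, 12.63 and 12.29 in AA replicates 1 to 3, against 13.18, 12.09 and 13.03 in unaffected replicates 1 to 3, with the groups interleaved. miR-125b-5p measured 12.85, 12.66 and 11.54 in AA replicates 1 to 3, against 12.90, 12.29 and 12.09 in unaffected replicates 1 to 3. It overlapped between the groups as well. let-7a and miR-125b-5p are each made from more than 1 locus, so their probes do not report the miR-100 cluster alone. Arrays were also scaled as a whole in place of quantile normalization. Relative to the median of all tested miRNAs, let-7a then differed by -0.78, miR-125b-5p by -0.85 and miR-100 by -0.86. The contrast of miR-100 with these partners thus depends on the normalization.

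At the miR-99b locus all 3 probes were detected often enough to be tested. let-7e differed by -0.0073 (SE 0.47) and miR-125a-5p by -0.70 (SE 0.67), beside 0.42 for miR-99b. miR-125a-5p measured 10.37, 10.69 and 8.11 in AA replicates 1 to 3, against 11.34, 9.94 and 9.99 in unaffected replicates 1 to 3. Its lower AA mean rested on AA replicate 3, without which the difference was 0.11. At the miR-99a locus let-7c differed by 0.51 (SE 0.45) and miR-125b-5p, as above, by -0.079, beside -0.24 for miR-99a. The let-7c probe also reports more than 1 locus. Differences between a member and its partners were not tested. The 5 opposite-arm probes of the partners (let-7a*, let-7c-1*, miR-125a-3p, miR-125b-3p and miR-125b*) were each detected on 0 of 6 arrays.

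**Figure D4:**
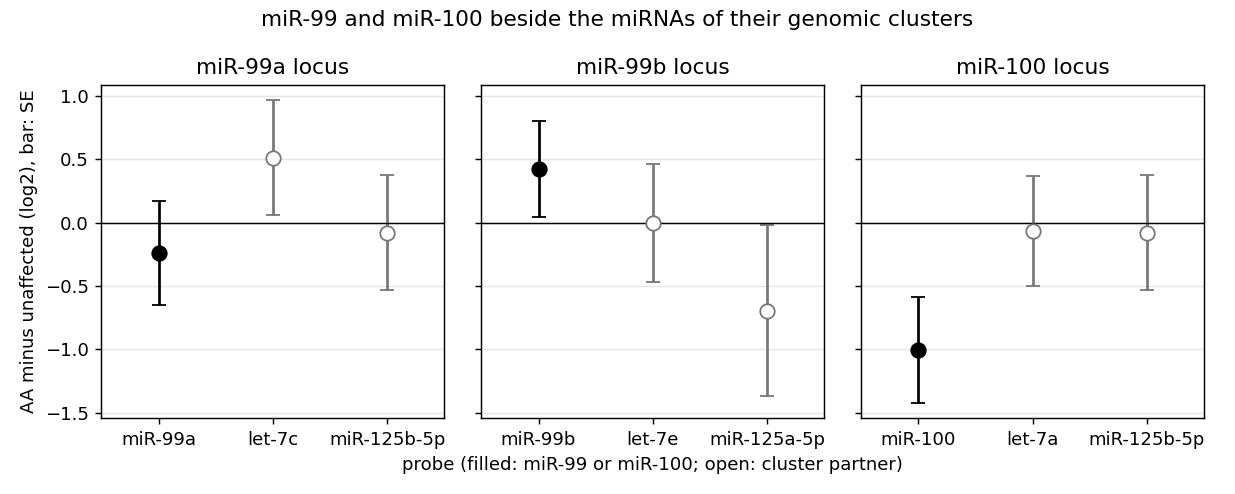
AA minus unaffected difference (y axis, log2, bars give the limma SE) of miR-99a, miR-99b and miR-100 (filled) beside the let-7 and miR-125 probes of the same cluster (open). miR-100 lies at -1.01 with its partners at -0.066 and -0.079, and miR-99b lies at 0.42 with let-7e at -0.0073 and miR-125a-5p at -0.70. Values are quantile-normalized, and the gap between miR-100 and its partners depends on that normalization.

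The miRNAs most like each tested member over the 6 arrays were found by Pearson r of the normalized values, outside the family. These values share their arrays, groups and normalization, and the r are descriptions. For miR-10b they were miR-30c (r = 0.97), miR-30b (0.97) and miR-15a (0.96), whose differences were -1.39, -1.46 and -0.96. For miR-100 they were miR-152 (r = 0.95), miR-30d (0.94) and miR-30b (0.93), so miR-30b appeared in both lists. The miRNAs most like miR-99a were miR-106b (r = 0.94), miR-708 (0.91) and miR-130a (0.87), with differences of -0.15, -0.054 and -0.38. Those most like miR-99b were let-7b (r = 0.93), let-7c (0.93) and miR-1937b (0.89), with differences of 0.50, 0.51 and 1.93. The groups of miR-1937b overlapped (SE 0.82), with 13.54 on AA replicate 3 and on unaffected replicate 1 alike. These r changed with the settings. At its lowest over the alternatives, r with the first miRNA named was 0.75 for miR-10b and 0.61 for miR-100. For miR-99a it was 0.70 and for miR-99b 0.77. Within the family miR-10b ran with miR-100 (r = 0.89) and opposite to miR-99b (r = -0.85).

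Marker miRNAs of other cell types were read beside these values, and their part in the family's differences was not tested. The summed linear level of the 4 skeletal muscle miRNAs, all tested, ran from 6882 to 12528 in AA and from 7679 to 35766 in unaffected skin. The 1 tested endothelial miRNA of 2, miR-126-3p, ran from 419 to 776 in AA and from 517 to 2420 in unaffected skin, and miR-126-5p was not detected on any array. The 6 fibroblast and smooth muscle miRNAs summed to 6296 to 10792 in AA and 7286 to 9209 in unaffected skin. The 7 keratinocyte miRNAs summed to 12891 to 24861 in AA and 16502 to 24824 in unaffected skin. The 2 red cell miRNAs summed to 575 to 12979 in AA and 3656 to 5796 in unaffected skin. Of 4 lymphocyte miRNAs, miR-150 ran from 551 to 924 in AA and from 325 to 560 in unaffected skin, while miR-142-3p, miR-142-5p and miR-155 were detected on 0 of 6 arrays. The ranges of these sums overlapped between the groups in all 6 lists, and a sum is carried by its brightest probes. Read singly, 17 of the 21 tested markers had a lower and 4 a higher mean in AA, beside 53.5% and 46.5% of all tested miRNAs. The groups were apart with AA lower for 3 of the 21, namely miR-133b of muscle (-0.90), miR-200a of keratinocytes (-0.80) and miR-152 of the fibroblast and smooth muscle list (-0.80), and apart with AA higher for 0. All 4 muscle miRNAs had lower means in AA, with a median difference of -0.83. With overlap, miR-1 differed by -2.01, miR-133a by -0.76 and miR-206 by -0.038. Unaffected replicate 1 was the lowest unaffected array for each of the 4. For miR-1 it read 9.74, against 13.78 in unaffected replicates 2 and 3 and 9.25, 9.94 and 12.09 in AA replicates 1 to 3.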

How the data were processed

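RNA of whole dorsal skin was poly(A)-tailed, tagged for Cy3 and hybridised by a service provider to 1-colour µParaflo chips, per the labels' protocols. Per the file headers, the authors' deposited scanner files give each spot's mean raw intensity, without background subtraction or normalization. The authors' deposited value table holds processed intensity on a linear scale. Its log2 values correlated with the background-subtracted scanner values at r = 0.989 to 1.000 per array over probes detected on all 6 arrays. Its column medians were 37.8, 44.3 and 34.2 in AA and 43.2, 38.0 and 39.0 in unaffected replicates 1 to 3. The sources used here do not give its scaling or centring.

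Each array held 3968 spots, among them 3535 miRNA spots and 145 empty or background control spots. Background was corrected with normexp (offset 50) in limma 3.58.1 (R 4.3.3) on all spots, log2 values of the 5 spots were averaged, and arrays were quantile-normalized over 707 miRNA probes. The offset compresses differences of dim probes. The 157 probes detected on at least 3 arrays were fitted with lmFit and eBayes (two-sided, Benjamini-Hochberg, threshold 0.05). The number of arrays limits the precision. The fit was tested on simulated data with known changes.

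Members and lists were chosen with earlier results of these data known. The rule for named miRNAs took all members, their opposite arms, other Hox-encoded miRNAs, cluster partners, and the 3 tested miRNAs of highest Pearson r with each tested member. Alternatives changed the background correction, scaling, filter, source of values, spot summary, variance model, replicate block and GC trend, and left out each array. The replicate numbers are not said to pair mice, and same-numbered arrays deviated from their group means with correlations of 0.14, -0.10 and -0.12, so no pairing was used. The files used here name no slide or scan.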

Additional observations from a re-analysis of the deposited data

How the results depend on the processing

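Relative values over all settings are given with the results above. As fitted, after scaling to the 75th percentile of the 88 probes found on every array, differences (AA minus unaffected) were 0.10 for miR-10a, -0.69 for miR-10b and -0.33 for miR-100, and signs also turned for miR-708 (1.20), miR-130a (0.80), miR-106b (0.45), miR-152 (0.096) and let-7e (0.034). With the 75th percentile of all miRNA probes they were -2.16 for miR-10b, -1.69 for miR-99a, -0.99 for miR-99b, -1.81 for miR-100 and -1.75 for the members' median. Without normalization they were -2.06, -1.58, -0.89, -1.70 and -1.64 for the same. miR-10a was -0.69 without background correction, -1.58 with the empty-spot median subtracted and -1.61 in the authors' value table, and miR-99b was 0.081 with the GC trend removed. With single arrays left out, the ranges were -1.34 to -1.04 for miR-10a, -1.49 to -1.01 for miR-10b, -0.39 to 0.017 for miR-99a, 0.24 to 0.62 for miR-99b, -1.27 to -0.78 for miR-100 and -0.79 to -0.38 for the members' median. Calls in limma then ran from 0 to 2 higher and from 0 to 3 lower over all tested miRNAs, with 2 higher without either unaffected replicate 1 or 2 and 3 lower without unaffected replicate 1. No member was among them. Every other alternative gave 0 and 0.

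Of the 5 members, 3 had groups apart with AA lower in the reported setting and with every single array left out. The number was 2 with the empty-spot median subtracted, with the median of the 5 spots and with the GC trend removed. It was 0 without normalization, and 4 in the authors' value table. The share over all miRNAs was counted in the reported setting alone, so nothing about the family is read from these numbers. The test limited to probes detected on all 6 arrays gave no value for miR-10a or miR-100. With replicate number as a block, the differences were those of the fit without it, as the design is balanced (-1.14 for miR-10a, -1.19 for miR-10b, -0.24 for miR-99a, 0.42 for miR-99b, -1.01 for miR-100 and -0.62 for the members' median), and the calls were 0 higher and 0 lower. The cause of these shifts was not tested. Low signal over the empty spots on the AA arrays limits what can be said of miR-10a, miR-10b and miR-100 there. The same holds for unaffected replicate 1, where they were at 0.944, 1.15 and 1.08 times the detection line.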
